A study of Caenorhabditis elegans with 4 samples.

Results

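Of the 19594 peaks called in ChIP replicate 2 of LET-418, 7192 (36.7%) overlapped no peak of the series-wide list, and these absent peaks are the subject here. They were chosen by comparing the 2 lists: a replicate 2 peak was absent when no peak of the 13690 in the series-wide list shared 1 bp with it. The other 12402 replicate 2 peaks overlapped that list. The study mapped LET-418 by ChIP-seq, which sequences the DNA crosslinked to a protein, in Caenorhabditis elegans of the wild-type strain N2 at larval stage L3, in mixed populations of males and hermaphrodites grown at 20 °C. It has 2 ChIP samples, made with an affinity-purified rabbit polyclonal antibody, and 2 samples of input DNA, numbered 1 and 2 in each kind. Every ChIP sample came from whole worms, so a peak may stem from any tissue, and the labels leave unsaid whether replicates 1 and 2 were grown separately.

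LET-418 is a worm homologue of Mi-2/CHD4, an ATPase that moves nucleosomes. It works in the NuRD complex, which joins remodelling to histone deacetylation, and in the MEC complex, and it keeps germline genes silent in somatic cells. On C. elegans autosomes the arms are rich in repeats and recombine often, while the centres are rich in genes. A peak caller compares the reads at a site with those expected there, so a weak site can be called in one list and missed in another. The sequences under the peaks are not shown, since no genome of the peaks' assembly, WormBase WS220, was used here.

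The absent peaks were weak and narrow. Their median replicate 2 score was 5.18 (95% interval of the median 5.04 to 5.32, quartiles 3.73 and 7.30), against 15.2 (15.1 to 15.7, quartiles 8.73 and 28.6) for the overlapping peaks. The score is the authors' own, deposited without a named scale, and is used only within 1 list. The median width was 193 bp (192 to 195) in absent peaks and 293 bp (290 to 297) in overlapping ones. Wide peaks were uncommon among the absent, with 1039 over 300 bp (14.4%), 180 over 500 bp (2.50%) and 10 over 1 kb (0.139%). Of the overlapping peaks, 5965 were over 300 bp (48.1%), 2537 over 500 bp (20.5%) and 556 over 1 kb (4.48%). The absent peaks were 36.7% of the replicate 2 peaks and 24.6% of the bases that list covered (1631 of 6632 kb). Width enters the rule, since a wide peak meets a 1-bp overlap more easily, and the score belongs to the list that the rule used, so both are given as descriptions with no test.

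**Figure D1:**
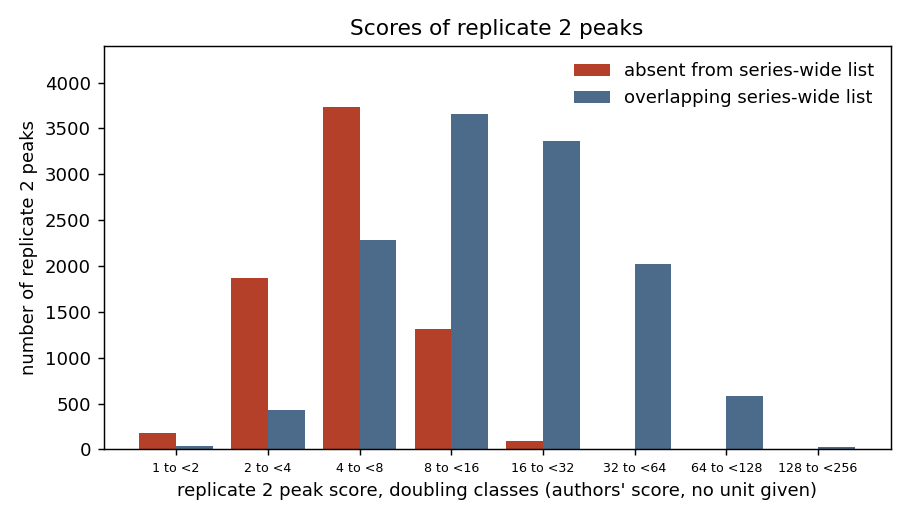
Number of replicate 2 peaks (y axis) in doubling classes of the authors' peak score (x axis), for peaks absent from the series-wide list and for peaks overlapping it. Absent peaks were most numerous at scores of 4 to under 8 (3737 peaks), overlapping ones at 8 to under 16 (3657 peaks), and 2 absent peaks had a score of 32 or more.

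The share of absent peaks dropped steadily with the score. When the replicate 2 peaks were ranked by score and divided into 10 strata of equal size, 83.1% of the lowest stratum (scores 1.31 to 3.61) were absent, with a Wilson interval of 81.3 to 84.7. The share was 42.7% (40.6 to 44.9) in the fifth stratum (7.49 to 9.32) and 3.42% (2.70 to 4.32) in the eighth (16.68 to 24.2). In the 2 highest strata, 5 of 3918 peaks were absent. The scores of the 2 sets still overlapped widely. There were 1074 overlapping peaks (8.66%) below the median score of the absent ones, and 121 absent peaks (1.68%) at or above the median of the overlapping ones. At a like score the absent peaks were also narrower, with the lower median width in 9 of 10 strata. In the first stratum the medians were 183 bp for absent and 198.5 bp for overlapping peaks, and in the eighth 221 and 297 bp. The exception was the highest stratum, with medians of 578 and 440 bp, where 2 peaks were absent.

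X carried the largest share of absent peaks of the 6 chromosomes. Of the 3097 replicate 2 peaks on X, 1360 were absent, or 43.9% (Wilson 42.2 to 45.7), against 5832 of 16497, or 35.4% (34.6 to 36.1), on the autosomes. The difference was 8.56 percentage points (95% interval 6.67 to 10.5). Among the autosomes the share ran from 32.1% (30.7 to 33.7) on III to 36.5% on I (35.0 to 38.1) and on IV (34.7 to 38.2), with 36.1% on II and 36.0% on V. The intervals of I, II, IV and V overlapped each other, while those of X and III overlapped no other chromosome's. At the score distribution of the whole replicate 2 list III was closer to the other autosomes, with 34.6% beside 35.1% on I and 35.6% on II. In absolute numbers III had 86.5 absent peaks per Mb, close to I with 87.3, and V had the fewest with 53.3. X had 76.8 per Mb. Overlapping peaks were densest on III, at 183 per Mb, with I next at 152 and II at 131, then IV at 107, X at 98.0 and V at 94.7.

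The higher share on X held at matched scores. Averaged over the 10 score strata, X exceeded the autosomes by 6.85 percentage points (5.44 to 8.26), and its share was the higher one in 9 of 10 strata. The gap was widest in the fifth stratum, where 54.4% (48.8 to 59.9) of the X peaks and 40.6% (38.2 to 43.0) of the autosomal peaks were absent. In the highest stratum 0 of 275 X peaks (Wilson upper bound 1.38%) and 2 of 1684 autosomal peaks were absent. The absent peaks themselves had near-equal strength in both places, with a median score of 5.32 on X and 5.17 on the autosomes. On X they lay farther from the series-wide list, at a median of 2249 bp, against 1506 bp on the autosomes. This was not particular to absent peaks. Overlapping peaks also lay farther from the next series-wide peak on X, at a median of 1069 bp, against 622 bp on the autosomes. The density of series-wide peaks was 107 per Mb on X, and on the autosomes it ran from 104 per Mb (V) to 199 (III). These intervals cover counting of peaks only. Neighbouring peaks are not independent, so the intervals are too narrow, and with 1 list per replicate no replicate error can be given.

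**Figure D2:**
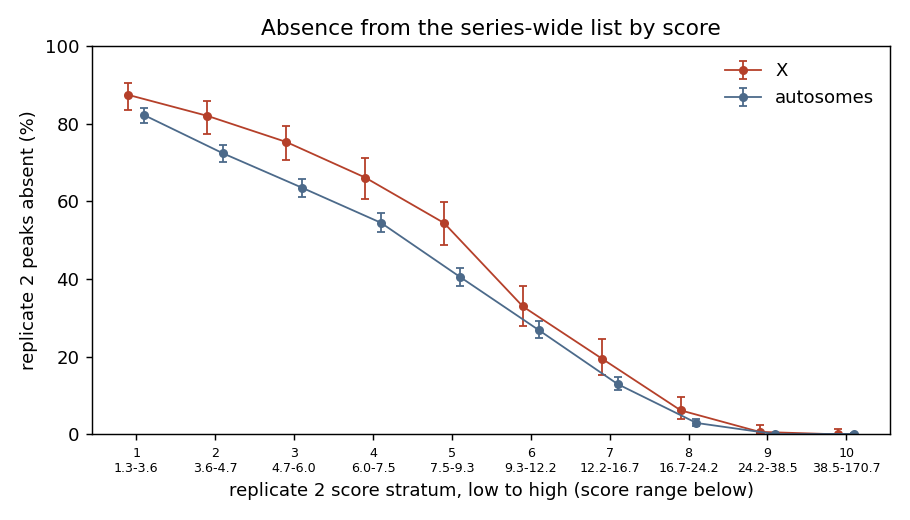
Percentage of replicate 2 peaks absent from the series-wide list (y axis) in 10 strata of replicate 2 score, low to high (x axis), for X and for the autosomes. Bars are 95% Wilson intervals over peaks; the share was higher on X in 9 of 10 strata, for example 75.3% against 63.5% in the third.

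The middle parts of the chromosomes had a slightly higher share of absent peaks than the outer parts pooled, but not on every chromosome. Each chromosome was divided into 3 equal parts by length. The middle parts had 2048 absent peaks of 5229, or 39.2% (37.9 to 40.5), and the outer parts 5144 of 14365, or 35.8% (35.0 to 36.6). The difference of 3.36 percentage points (1.82 to 4.90) was 2.07 (0.903 to 3.25) at matched scores. Among peaks at or above the median replicate 2 score it was -0.124 (-1.38 to 1.22), and 0.425 (-0.787 to 1.64) at matched scores, so no difference was detectable for the stronger peaks. The middle part had the highest share of its chromosome's 3 parts on 1 of 6 chromosomes, IV, with 41.9% in the middle, 32.1% in the left and 38.8% in the right part. On I, II, III and V it lay between the outer parts, close to the higher one on II (39.5% in the middle, 39.95% in the right part) and III (37.1% and 37.7%). On X it was the lowest, with 42.8% in the middle, 45.8% in the left and 43.1% in the right part, and the 3 intervals overlapped.

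The outer part with more replicate 1 peaks had the lower share of absent peaks on each of the 5 autosomes. On I, 30.4% of the replicate 2 peaks were absent in the right part, where replicate 1 had 174 peaks, and 42.9% in the left part, where it had 69. On II the shares were 28.8% in the left part (218 replicate 1 peaks) and 39.95% in the right part (89). On III they were 25.1% in the left part (399) and 37.7% in the right part (65). IV had 32.1% in the left part (190) and 38.8% in the right part (43), and V had 27.8% in the right part (246) and 43.2% in the left part (47). The difference between the 2 sides ran from -15.3 percentage points on V to -6.70 on IV. At the score distribution of the whole replicate 2 list the same 5 differences were smaller, from -6.19 on I to -2.27 on III. X had 45.8% in the left part (41 replicate 1 peaks) and 43.1% in the right part (29), the opposite order, with overlapping intervals. The making of the series-wide list is not described in the labels or headers. It may hold replicate 1 reads, so its relation to the replicate 1 list is a description and no independent evidence.

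**Figure D3:**
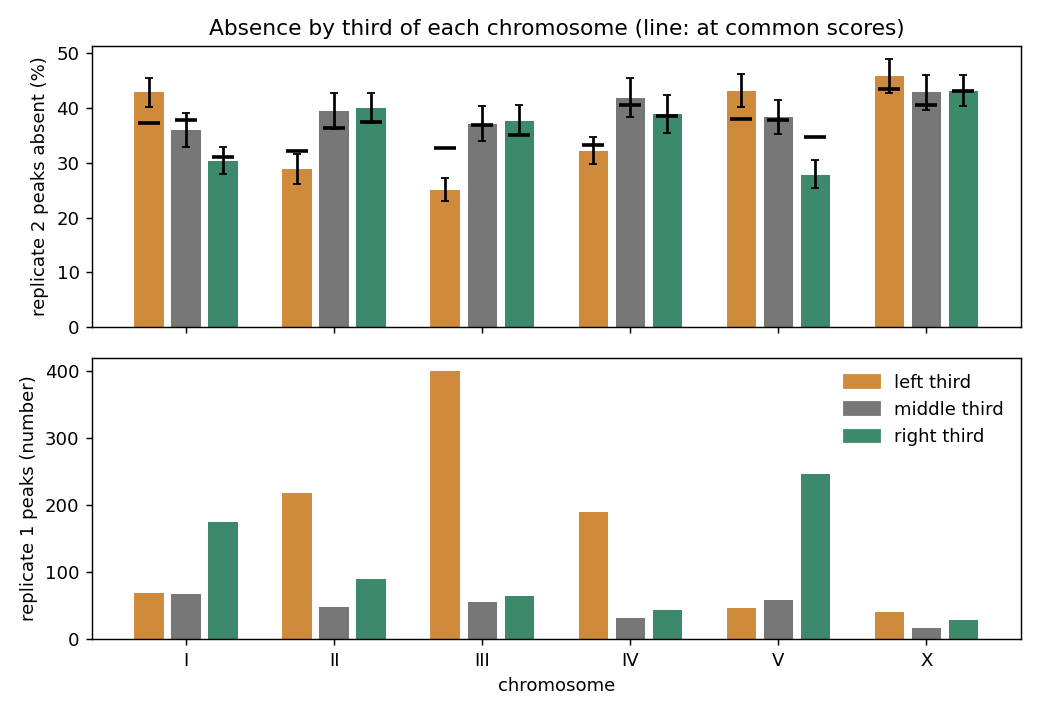
Upper panel, percentage of replicate 2 peaks absent from the series-wide list in the left, middle and right part of each chromosome, with 95% Wilson intervals; short lines give the share at the score distribution of the whole replicate 2 list. Lower panel, number of replicate 1 peaks in the same parts. III left had the most replicate 1 peaks (399) and, before scores were matched, the lowest share of absent peaks (25.1%). At the score distribution of the whole list the lowest share was in I right (31.0%), with III left at 32.7%.

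Replicate 1 had almost no peak at the absent sites. Of the 7192 absent peaks, 1 overlapped a replicate 1 peak (0.0139%, Wilson 0.00245 to 0.0787), against 1694 of the 12402 overlapping peaks (13.7%, 13.1 to 14.3). Over all replicate 2 peaks the share was 8.65%. The rule largely fixes this contrast, since all but 4 of the 1887 replicate 1 peaks overlapped the series-wide list, and nothing is read from it. The single site was II 7883362 to 7883531, with a replicate 2 score of 1.90, and it met the replicate 1 peak II 7883109 to 7883383 by 22 bp. That replicate 1 peak had a score of 2.62 and ranked 1721 of 1887. The nearest series-wide peak lay 364 bp away.

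Most absent peaks lay within a few kb of a series-wide peak, yet few lay right beside one. The median edge-to-edge distance was 1637 bp (1564 to 1717; quartiles 543 and 5058). Within 200 bp there were 684 absent peaks (9.51%, Wilson 8.85 to 10.2), within 1 kb 2739 (38.1%) and within 5 kb 5386 (74.9%). Beyond 10 kb there were 927 (12.9%), and beyond 50 kb 29 (0.403%). Overlapping peaks were closer to the next series-wide peak that they did not overlap, at a median of 667.5 bp (643 to 698), with 21.7% of them within 200 bp and 59.1% within 1 kb. For 6854 absent peaks (95.3%) the nearest series-wide peak overlapped another replicate 2 peak. The share of all series-wide peaks that overlapped a replicate 2 peak is not given here, so nothing is read from this value. The distance varied little with score up to the sixth stratum, with medians of 1523 to 1704 bp, and was 2093 bp in the seventh and 3200 bp in the eighth. The 3 absent peaks of the ninth had a median of 829 bp and the 2 of the highest stratum of 3692.5 bp.

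**Figure D4:**
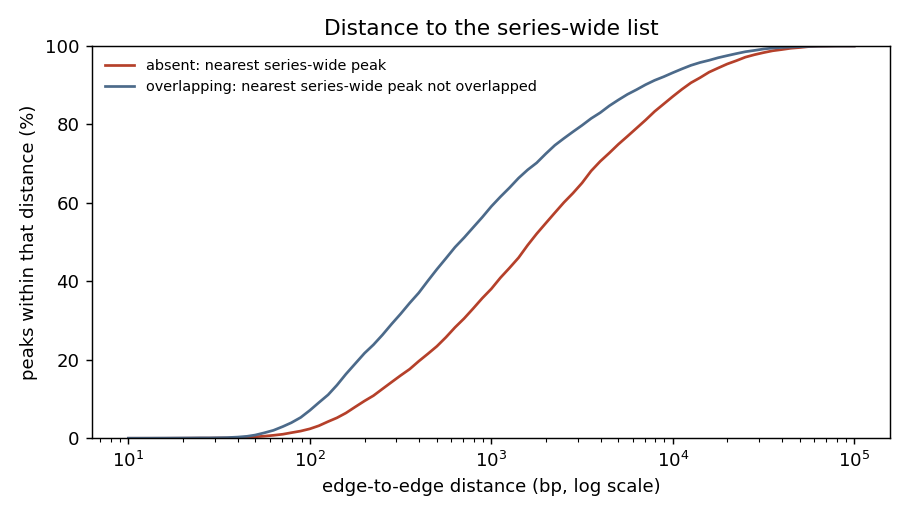
Cumulative percentage of peaks (y axis) within a given edge-to-edge distance in bp (x axis, log scale) of the nearest series-wide peak, for absent peaks, and of the nearest series-wide peak that they did not overlap, for overlapping peaks. The medians are 1637 and 667.5 bp.

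The 3 peaks closest to the limit of the rule on each side of it scored below the median of all replicate 2 peaks (9.32). The absent ones scored within the quartiles of all absent peaks (3.73 and 7.30), and so few peaks show no trend with distance. The 3 absent peaks nearest to a series-wide peak were V 19355329 to 19355475 (17 bp away, score 4.34), X 9229458 to 9229718 (22 bp, 6.20) and I 91441 to 91637 (25 bp, 6.03). The 3 overlapping peaks with the smallest overlap were V 8605551 to 8605731 (2 bp, score 4.18), III 11190483 to 11190769 (3 bp, 2.44) and III 11269603 to 11269780 (8 bp, 7.38). At the other extreme, V 3905898 to 3906121 was 73008 bp from any series-wide peak, with a score of 8.42. A group of 3 neighbours on V, 2803879 to 2804058, 2805371 to 2805516 and 2809520 to 2809690, lay 72878, 72000 and 67826 bp away, with scores of 7.53, 5.67 and 5.32. The fifth of the most distant was IV 12928546 to 12928704, at 70478 bp and a score of 6.03.

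A few absent peaks were strong. The highest score was 55.79, at IV 1831009 to 1831709 (701 bp), which ranked 902 of all 19594 replicate 2 peaks. The nearest series-wide peak was 4087 bp away and had a series-wide score of 3.16. It was 1 of the 2 absent peaks among the 1959 of the highest stratum. The other was I 1 to 455, with a score of 42.46, at the first base of the chromosome. The next were X 17151121 to 17151397 (25.71), X 2572766 to 2572970 (25.61) and II 4673277 to 4673609 (24.85), which was 171 bp from a series-wide peak. The 20 highest-scoring absent peaks ended at a score of 20.99. X held 8 of these, V 5, II 3, I and IV 2 each and III 0. Their widths were 179 to 701 bp, with 15 under 300 bp, and 6 lay in the middle part of a chromosome. Of all 7192 absent peaks, 18.9% were on X and 28.5% in a middle part. The highest-scoring absent peak of III, at III 7584275 to 7584460, had a score of 19.48, and that of V, at V 4686762 to 4686968, had 22.13. The same score of 21.57 was shared by 4 of the 20, by 63 replicate 2 peaks in all, and 59 of those 63 overlapped the series-wide list.

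The outermost replicate 2 peak on each side of every chromosome was an absent one. On all 6 chromosomes the first replicate 2 peak started at base 1 and the last lay beyond any peak of the other lists. All 12 of these end peaks were absent from the series-wide list, against 36.7% of all replicate 2 peaks. No end peak overlapped a replicate 1 peak, but only 1 of all 7192 absent peaks did, so nothing is read from that. Chromosome ends in C. elegans carry arrays of a short telomeric repeat. The scores at the left ends were 42.46 on I, 21.49 on II, 7.80 on III, 14.09 on IV, 17.11 on V and 22.79 on X. At the right ends they were 2.05 on I, 10.88 on II, 13.87 on III, 12.79 on IV, 21.63 on V and 7.20 on X. Of the 12 scores, 11 were at or above the median of the absent peaks. The left ends had a median of 19.3 and the right ends of 11.8, with overlapping ranges. The end peaks were 192 to 455 bp wide and 364 to 44311 bp from the nearest series-wide peak. Of the 20 strongest absent peaks, 4 were end peaks (I, II and X left, V right). This pattern was singled out after its values were seen.

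The widest absent peak, II 3466518 to 3469422, spanned 2905 bp with a score of 14.16. Next in width came III 13091193 to 13092559 (1367 bp, score 7.92), IV 1721662 to 1722942 (1281 bp, score 10.00), V 8936896 to 8938170 (1275 bp, score 7.93) and II 11916648 to 11917873 (1226 bp, score 6.82). The widest was 12702 bp from any series-wide peak, more than the other 4, which were 178 to 4195 bp away. None of the 5 was among the 20 highest-scoring absent peaks, but those 20 are so few of the 7192 that nothing is read from it. All 5 scored above the median of the absent peaks (5.18), and the widest scored above their 95th percentile (11.93).

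Absent peaks often came in succession. The nearest replicate 2 neighbour of an absent peak was absent too in 3365 cases (46.8%, Wilson 45.6 to 47.9), against 3512 of the 12402 overlapping peaks with an absent neighbour (28.3%, 27.5 to 29.1). Over all replicate 2 peaks 36.7% were absent. Taken in order along the chromosomes, the absent peaks formed 3899 unbroken runs, of which 2210 held 1 peak. The 196 runs of 5 or more held 1221 absent peaks (17.0%). The runs and bins described next were picked with their values in view.

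The longest run held 23 absent peaks from I 4341265 to 4371319. Its first 21 lay within 16292 bp, up to I 4357556, and covered 44.7% of that stretch. Their scores were 1.65 to 10.7 and their widths 158 to 774 bp. The next replicate 2 peaks on either side were overlapping ones, which follows from the definition of an unbroken run. No series-wide or replicate 1 peak lay in the run. The runs next in length, on IV and V, also held neither, so nothing is read from this. The second was IV 3035119 to 3050013, with 13 absent peaks in 14895 bp at scores of 1.65 to 7.40. The third held 12 absent peaks on V. Of these, 11 lay from V 17117836 to 17131414 with scores of 2.55 to 7.38 and widths of 269 to 580 bp, and 7 of the 10 spacings between successive midpoints were between 900 and 1100 bp (median 991 bp). In the run on I, 4 of 20 spacings fell in that range (median 767 bp). C. elegans has its 5S rRNA genes in a tandem array on V, and the RefSeq gene table of another assembly, WBcel235, names 15 genes of that family (rrn-4) on V and 1 on I. Positions from that table were not used, and whether the V run lies over these genes was not tested.

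**Figure D5:**
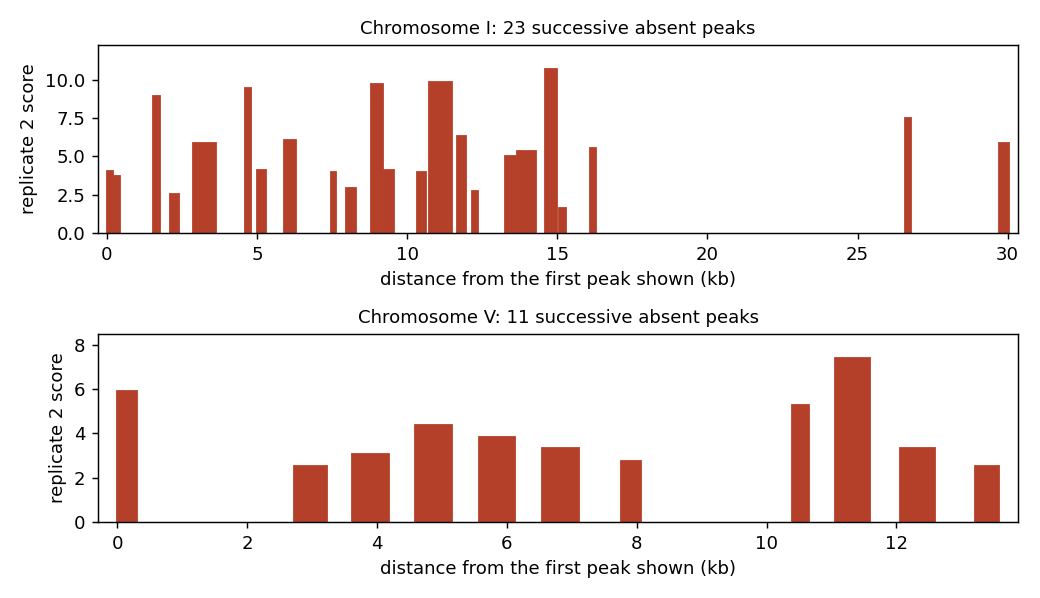
Successive absent peaks of the longest run on I (23 peaks, upper panel) and of the run on V (the 11 peaks that lie together, lower panel), by distance in kb from the first peak shown (x axis); each block spans a peak and its height is the replicate 2 score (y axis). The V peaks are near-evenly spaced apart from 2 wider gaps.

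The share of absent peaks also varied on a scale of 500 kb. Over the 202 bins with at least 20 replicate 2 peaks, the median share was 38.6% (quartiles 32.7 and 45.2). The highest was V 17 to 17.5 Mb, which holds the V run, with 21 of 23 peaks absent (91.3%, Wilson 73.2 to 97.6). Then came X 17 to 17.5 Mb with 42 of 72 (58.3%), V 4.5 to 5 Mb with 53 of 97 (54.6%), I 4 to 4.5 Mb with 54 of 99 (54.5%) and X 3 to 3.5 Mb with 36 of 67 (53.7%). The I bin holds the longest run. The lowest were III 1.5 to 2 Mb with 40 of 300 (13.3%, 9.95 to 17.6), II 1.5 to 2 Mb with 4 of 28 (14.3%), III 3 to 3.5 Mb with 32 of 213 (15.0%), II 2 to 2.5 Mb with 25 of 162 (15.4%) and V 19 to 19.5 Mb with 16 of 102 (15.7%). Replicate 1 had 122, 7, 65, 67 and 45 peaks in these 5 bins, and 1, 2, 2, 3 and 3 in the 5 highest. Counts that low were not particular to the highest bins. They also occurred in bins below the median share, such as those starting at X 15 Mb (0 peaks, 33.9% absent) and V 15 Mb (1 peak, 29.1% absent).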

How the data were processed

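Analysed were the peak lists of both ChIP replicates and a list of the whole series, 3 in all; no list of an input sample was used here. Reads were mapped with BWA to ce10, per the submitters' processing notes, and peaks were called with MACS on WormBase WS220, per the file headers and source column. Not given in the sources used here are versions, the calling threshold, the use of the inputs, filters and the making of the series-wide list. Each peak's score was deposited by the authors with 2 decimals and no named scale. Starts and ends are 1-based. With no read counts in the lists, the depth is unknown, and deeper sequencing alone can lengthen a list.

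No peak was filtered. Overlap was at least 1 bp. The largest peak end over the 3 lists stood for a chromosome's length. Shares carry 95% Wilson intervals, differences 95% Newcombe intervals and medians 95% order-statistic intervals. Score-matched differences were averaged over 10 strata weighted by size, with a 95% normal interval. All cover counting over peaks, which are not replicates. No p-value was computed, since each replicate gave 1 list. The overlap, the edge-to-edge distance and the score-matched difference were tested on simulated data with independent peaks. The other procedures were not tested in this way. The rule for named peaks took the 20 highest-scoring, 5 widest, 5 farthest and 3 nearest absent peaks, the highest-scoring of each chromosome, those meeting replicate 1 and the 3 smallest overlaps. The members and rules were chosen with earlier results of these data known. Peaks were assigned to no gene, since the gene table is on another assembly, WBcel235. Computation was in Python 3.11.15 with pandas 2.3.3, SciPy 1.17.1 and NumPy 2.4.6, and plotting in Matplotlib 3.10.9.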

Additional observations from a re-analysis of the deposited data

How the results depend on the processing

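No paired analysis was possible because the input samples have no peak list here. The lists hold no depth, which limits every share. The share absent of 36.7% was 39.9% with a cover of 50% of each replicate 2 peak as the rule and 33.2% when a series-wide peak within 200 bp counted. It was 9.11% for the stronger part of replicate 2 (scores no lower than its median) and 64.8% against the stronger part of the series-wide list. Under the last 2 settings the excess on X was 3.72 and 12.1 percentage points (3.45 and 10.4 at matched scores), the excess of the middle parts -0.124 and 8.73 (0.425 and 7.64 at matched scores), the median score 11.1 and 6.39, the median width 211 and 222 bp, the median distance 1863 and 3262 bp and the absent peaks meeting replicate 1 0 and 35. With the 50% rule the median width was 199 bp, the distance 1391 bp and the peaks meeting replicate 1 10. With the 200-bp rule the distance was 1988 bp, and between midpoints it was 1898 bp. With the centre as the middle 50% of a chromosome its excess was 5.24 percentage points (2.82 at matched scores). Leaving out the replicate 1 list changes nothing by construction, as the rule does not use that list. The series-wide list was kept as it was and may hold replicate 1 reads. This setting is therefore no check on the influence of replicate 1. Leaving out replicate 2 puts the replicate 1 list in its place, with 4 absent peaks, on which no direction can rest. In each pair that follows, the value with the replicate 1 list comes first and that with the replicate 2 list second. The share was 0.212 and 36.7%. The excess on X was -0.222 and 8.56 percentage points (-0.230 and 6.85 at matched scores). That of the middle parts was 0.598 and 3.36 (0.368 and 2.07 at matched scores). The median width was 260.5 and 193 bp and the median distance 4423 and 1637 bp. The peaks that met the other replicate were 2 and 1. The median score was 2.69 and 5.18, but scores of different lists are not compared here. The causes were not tested, other than those the settings build in (fewer peaks, another list).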
